A study of Mus musculus with 10 samples.

Results

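The genes described here encode the proteasome. They were taken as the protein-coding genes with a symbol made of Psma, Psmb, Psmc, Psmd, Psme, Psmf or Psmg and a number, without the immunoproteasome subunits Psmb8, Psmb9 and Psmb10. The rule found 46 genes among the 39056 of the count table: 16 of the core, 20 of the regulatory particle, 5 activators, and 5 that are an inhibitor or assembly chaperones. Classes follow the symbols alone, with all Psmc and Psmd genes in the regulatory particle. Chaperones with a Psmd symbol, such as Psmd10, are therefore counted there. The libraries came from livers of C57BL/6 mice, wild-type (WT) or MLK3-KO (KO, without the kinase MLK3, encoded by Map3k11), all aged 11 months. The tumour groups, 3 WT and 3 KO libraries, came from male mice that had received DEN (diethylnitrosamine, a liver carcinogen) at 5 µg per g body weight by 1 intraperitoneal injection at 2 weeks of age. These mice then drank water with 0.05% PB (phenobarbital, a tumour promoter), from 1 week after the injection until they were killed. The liver groups, 2 WT and 2 KO libraries, came from control mice on plain water, described as matched for sex and age. The treated samples are labelled as tumour, whereas the extraction protocol speaks only of treated liver, so the amount of normal liver in them is not known, and carcinogen, promoter and tumour cannot be told apart in any comparison with control liver. The protocols do not give the kind of KO allele or say whether a library is 1 mouse or 1 nodule, so p-values measure the spread between these libraries.

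The proteasome is the main protease for intracellular proteins tagged with ubiquitin. A barrel of stacked rings of α and β subunits, the core, holds the catalytic sites, and the regulatory particle on its ends binds ubiquitin chains, removes them, and unfolds the substrate with a ring of ATPases. Other caps, the activators, open the barrel without ATP, and dedicated chaperones assemble the rings. Liver cells use it to turn over short-lived regulators of growth and metabolism, and transcription factors such as Nrf1 raise many subunit genes together when proteolysis falls short.

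The libraries held 12408749 to 18081487 counts from 3′ tags, which are read from transcript ends, so that counts depend little on transcript length. Of the KO tumours, replicate 2 stood apart: its summed level of 5 tumour markers (Afp, Gpc3, Igf2, H19 and Scd2) was 12.1 CPM (counts scaled to a library of 1000000), against 346 and 2796 in the other KO tumours, 996 to 1802 in WT tumours and 6.06 to 19.8 in livers, so this library goes against its label. Fold changes between the KO tumours and another group are also given without this library, save for DESeq2, which was run on all 10 libraries. Map3k11 read 7.92 and 14.9 CPM in WT livers, 12.2, 9.54 and 14.3 in WT tumours, 5.38 and 5.81 in KO livers, and 10.0, 10.3 and 5.84 in the KO tumours. A tag at the transcript end does not check a deletion elsewhere in the gene. The 6 hepatocyte genes, none at 0, summed to 45568 to 45940 CPM in WT livers, 50645 to 53042 in KO livers, 75729 to 99257 in WT tumours and 39319 to 47930 in the KO tumours. Alb and Apoa1 carried the high WT tumour sums, at means of 54561 and 11652 CPM against 23632 and 3791 in WT livers. Serpina1c was also higher in every WT tumour (mean 11077 against 8241), whereas Cps1 (665 against 1673) and Hnf4a (122 against 199) were lower and Ttr overlapped. The T and NK list summed to 18.8, 2.11 and 17.6 CPM in WT tumours against 2.07 and 2.08 in WT livers, with 3 of its 5 genes at 0 in each WT liver. Its sums overlapped in KO mice (3.21 to 32.6 in tumours, 3.89 to 6.94 in livers). Another 5 lists also summed higher in every WT tumour than in both WT livers. These were macrophage and Kupffer genes (6, none at 0; 496 to 725 against 308 to 325 CPM), cholangiocyte genes (5; 164 to 348 against 88.1 to 118, with Krt19, Krt7 and Epcam at 0 in WT liver replicate 1), and erythroid genes (4, none at 0; 2439 to 4788 against 1876 to 2026). The others were proliferation genes (5; 51.0 to 85.8 against 1.14 to 4.71, with Ccna2 at 0 in both WT livers) and neutrophil genes (4; 55.1 to 212 against 21.9 to 22.6, with the defining Ly6g at 0 in every library but KO tumour replicate 2). Genes within a list differed. Cd5l carried the macrophage and Kupffer sums (mean 400 CPM in WT tumours against 141 in WT livers). Clec4f of the same list was lower in every WT tumour (24.4, 14.3 and 14.5 against 33.0 and 38.0 CPM). Spp1 carried the cholangiocyte sums (mean 117 against 11.7), whereas Krt19 was near the floor and overlapped (0.52 against 0.69). In the KO tumours these 5 lists summed to 442 to 638, 51.7 to 201, 3346 to 4681, 5.17 to 35.2 and 16.2 to 196 CPM in the same order, against 302 to 490, 59.6 to 74.9, 2513 to 2973, 2.97 to 10.6 and 7.78 to 11.3 in KO livers, and only the erythroid and neutrophil sums lay apart. The part of these cell types in the proteasome results was not tested. In bulk tissue, fewer cells of a type and less RNA per cell cannot be told apart.

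Of the 46 genes, 45 passed the filter on low counts and were tested among 15811 genes. Psmb11, the thymus-specific core subunit, did not pass: it had 8 counts in WT tumour replicate 1, 1 in replicate 2 and 0 in the other libraries. Psma8, the germ-line form of an α subunit, passed with scattered counts. It had 0 and 0 counts in WT livers, 0 and 59 in KO livers, 0, 37 and 38 in WT tumours, and 26, 0 and 62 in the KO tumours. Every group with counts of Psma8 held a library at 0 as well, so no fold change is given for it.

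The other 44 genes had counts in all 10 libraries. The median of the tested proteasome genes was 75.7 CPM, scaled by edgeR's TMM factors (which correct library totals for composition), against 9.17 for all genes tested. Psmd3, a scaffold subunit of the lid of the regulatory particle, had the highest mean over libraries (255 CPM), followed by Psmd2 (249 CPM), a scaffold subunit of the base, Psmd4 (239 CPM), a ubiquitin receptor, and Psmd8 (234 CPM), a lid subunit. The genes of the catalytic β subunits differed in level: Psmb6 (caspase-like site) averaged 130 CPM, Psmb5 (chymotrypsin-like) 24.7 CPM and Psmb7 (trypsin-like) 7.16 CPM. Psmb7 overlaps an exon of Nek6 on the other strand and Psmb5 holds Mir686, and the sources do not say whether counting used strand, so these levels are less certain.

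Levels varied little between groups. The ratio of the highest to the lowest group mean was under 1.5 for 30 of the 45 tested genes (66.7%), against 20.0% of all genes tested, and under 2 for 42 (93.3%), against 41.2%. The pooled coefficient of variation within groups had a median of 16.8% over the proteasome genes and 37.6% over all genes. Leaving out Psma8, it was lowest for Psmd2 (4.26%) and highest for Psmg4 (44.7%), an assembly chaperone. Genes without counts in a whole group, such as Psma8, have no such value and are not in these medians. The proteasome genes are also more abundant than most, and spread was not compared at matched abundance.

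Summed over the 46 genes, TMM-scaled levels were 4581 and 4482 CPM in WT livers, 4232 and 4726 in KO livers, 3849, 3843 and 3832 in WT tumours, and 4276, 4314 and 4458 in the KO tumours. The 3 WT tumours thus lay below every other library. The KO tumours lay below both WT livers, and the 2 KO livers spanned the range of both. The WT tumour mean of 3841 ± 8.62 (SD, n = 3) was 15.2% below the WT liver mean of 4532 ± 70.3 (SD, n = 2), and the KO tumour mean of 4349 ± 96.0 (SD, n = 3) was 13.2% above that of WT tumours (13.7% without KO tumour replicate 2). This order depends on scaling. As CPM of the library total, with no TMM factor, the sums were 4120 and 4074 in WT livers, 4091 and 4264 in KO livers, 4455, 3894 and 4206 in WT tumours, and 4470, 4272 and 4668 in the KO tumours. On that scale WT tumours overlapped both liver groups and their mean was 2.15% above that of WT livers. The TMM factors were 1.16, 1.01 and 1.10 in WT tumours, 0.90 to 0.97 in livers, and 0.99 to 1.05 in the KO tumours. The WT tumours are also the libraries with the highest Alb and Apoa1 levels, but any part of these levels in the scaling was not tested.

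**Figure D1:**
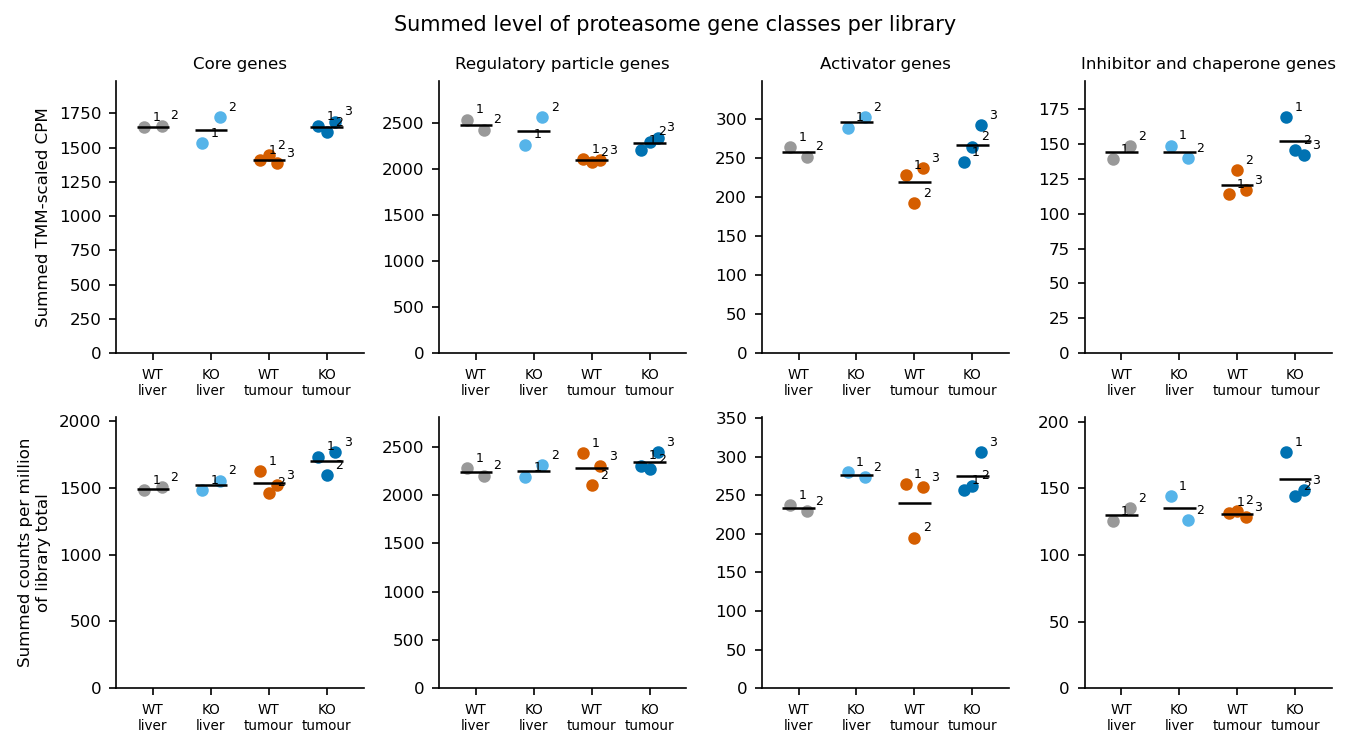
Summed level of the core, regulatory particle, activator, and inhibitor and chaperone genes in each of the 10 libraries (points, labelled by replicate; lines, group means), as TMM-scaled CPM (top) and as CPM of the library total (bottom). In the top row the 3 WT tumours lie below the WT livers in all 4 classes; in the bottom row they do not.

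By class, TMM-scaled sums were lower in WT tumours than in WT livers by similar amounts. The core went from 1653 ± 8.54 (SD, n = 2) to 1412 ± 31.3 CPM (SD, n = 3), and the regulatory particle from 2477 ± 77.2 to 2090 ± 14.1 CPM with the same n. The activators went from 258 ± 8.30 to 219 ± 23.5 CPM, and the inhibitor and chaperones from 144 ± 6.62 to 121 ± 9.47 CPM. In KO tumours the core sum was 1653 ± 38.6 CPM (SD, n = 3), with all 3 libraries between the KO livers' 1534 and 1723. The regulatory particle sum was 2277 ± 67.4 CPM (SD, n = 3), with replicate 1, at 2203, below the KO livers' 2259 and 2560. The ratio of core to regulatory particle sums needs no scaling. It was 0.651 and 0.685 in WT livers, 0.679 and 0.673 in KO livers, 0.669, 0.697 and 0.661 in WT tumours, and 0.752, 0.703 and 0.723 in the KO tumours. All 3 KO tumours had a higher ratio than the other 7 libraries, the one that stands apart by its tumour markers being the lowest of the 3.

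In WT tumours against WT livers, 1 of the 45 genes, Psmc5, fell by edgeR's quasi-likelihood test, with p-values adjusted over all genes tested by the Benjamini-Hochberg method and a threshold of 0.05, where 4.7% of all genes were called lower. None was called higher, against 3.64% of all genes, and at an unadjusted p under 0.05 there were 2 higher and 9 lower, 24.4% of members against 21.4% of all genes. The median log2 fold change of the tested members was -0.24, against 0.09 over all genes, and 30 of the 45 were below 0 (45.4% of all genes were). DESeq2 called 7 of the members, where it called 16.2% of all genes: Psma4, Psmc1, Psmc5, Psmd11, Psmd2 and Psmd4 lower, and Psmd8 higher. With library totals alone the median moved to 0.02, and that of all genes to 0.36, so the members' distance below all genes stayed near -0.33 (-0.34 with totals). The calls then changed: Psmd8 was called higher (log2 0.85, adjusted p = 0.027 by edgeR) and Psmc5 was not called, so that the split was 1 higher and 0 lower. Of all genes 920 were then called higher and 496 lower, against 575 and 743 with TMM.

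The libraries of 20 members did not overlap, with all WT tumours below both WT livers: 5 core, 11 regulatory particle, 2 activator, and 2 chaperone genes. Of all genes tested, 17.6% showed this pattern. With library totals alone it held for 7 members (15.6%), Psmc1, Psmc5, Psmd11, Psmd2, Psmd4, Psmd6 and Psme4, against 11.5% of all genes. All WT tumours lay above both WT livers for 3 members (6.67%), Psma7, Psmd8 and Psmd10, against 19.6% of all genes, and with library totals for 8 (17.8%), against 27.2%.

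Psmc5 (ENSMUSG00000020708, chr11:106256154-106263120 on the plus strand in GRCm38) encodes an ATPase of the ring that unfolds substrates. It read 55.7 and 57.5 CPM in WT livers, 47.7 and 48.9 in KO livers, 33.0, 27.8 and 25.2 in WT tumours, and 37.8, 37.1 and 41.4 in the KO tumours. The 4 groups did not overlap with TMM scaling, in the order WT liver, KO liver, KO tumour, WT tumour. With library totals the first 3 still lay apart in this order, but the tumour groups overlapped. In WT tumours its log2 fold change against WT livers was -0.98 (SE 0.24, adjusted p = 0.017 by edgeR), and over both genotypes together it was -0.65 (SE 0.17, adjusted p = 0.024; -0.63 and 0.038 without KO tumour replicate 2). Neighbours in that order did not differ by the test: KO against WT liver gave -0.23 (95% interval -0.79 to 0.33), KO tumour against KO liver -0.32 (-0.83 to 0.20), and KO against WT tumour 0.43 (-0.03 to 0.90). The last pair were -0.29 and 0.47 without KO tumour replicate 2. The WT call held in 11 of 16 alternative settings, with adjusted p between 8.8e-04 and 0.10. Without WT liver replicate 1 the adjusted p was 0.075, without WT liver replicate 2 it was 0.093, and without WT tumour replicate 3 it was 0.054, while log2 fold changes stayed between -1.11 and -0.71.

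Psmd11, Psmc1, Psmd8 and Psmd2, all of the regulatory particle, were chosen after their values were seen, since DESeq2 called them. Psmd11, a lid scaffold subunit, read 132 and 123 CPM in WT livers, 116 and 128 in KO livers, 78.7, 68.8 and 78.9 in WT tumours, and 76.1, 131 and 96.0 in the KO tumours. All WT tumours lay below all livers, whereas the KO tumours spanned both ranges. Its log2 fold change in WT tumours was -0.75 (SE 0.24, adjusted p = 0.067 by edgeR), and without KO tumour replicate 2, the library with the highest Psmd11 among the KO tumours, the adjusted p was 0.029. Without KO tumour replicate 1 it was 0.0498. Psmc1, another ATPase of the ring, read 150 and 143 CPM in WT livers, 144 and 150 in KO livers, 95.7, 106 and 89.6 in WT tumours, and 130, 154 and 133 in the KO tumours. The WT tumours lay below every other library. Its log2 fold change was -0.60 (SE 0.20, adjusted p = 0.086 by edgeR) against WT livers and, for KO against WT tumours, 0.52 (SE 0.18, adjusted p = 0.15), or 0.44 without KO tumour replicate 2.

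Psmd4 was described for its difference between the tumour groups. This receptor for ubiquitin chains read 304 and 251 CPM in WT livers, 237 and 320 in KO livers, 152, 164 and 198 in WT tumours, and 225, 288 and 246 in the KO tumours. Here too the WT tumours were the lowest 3 libraries. The log2 fold change was -0.70 (SE 0.23, adjusted p = 0.073 by edgeR) against WT livers, and 0.56 (SE 0.20, adjusted p = 0.17) for KO against WT tumours, or 0.46 without KO tumour replicate 2. Psmd8, a lid subunit, went the other way. It read 211 and 202 CPM in WT livers, 206 and 164 in KO livers, 308, 304 and 313 in WT tumours, and 223, 183 and 224 in the KO tumours. All WT tumours lay above all other libraries, and with library totals they still lay above the WT livers and the KO tumours. Its log2 fold change was 0.58 (SE 0.21, adjusted p = 0.11 by edgeR) in WT tumours against WT livers and -0.55 (SE 0.18, adjusted p = 0.13) in KO against WT tumours, and DESeq2 called both, at adjusted p = 0.019 and 0.017. The second was -0.47 by edgeR without KO tumour replicate 2. Psmd2, a scaffold of the base that binds ubiquitin-like domains, read 282 and 281 CPM in WT livers, 276 and 276 in KO livers, 219, 192 and 208 in WT tumours, and 246, 264 and 249 in the KO tumours. Both tumour groups lay below both liver groups, with a log2 fold change of -0.45 (SE 0.19, adjusted p = 0.19 by edgeR) in WT tumours. With library totals the WT tumours still lay below the WT livers, but the KO tumours overlapped the KO livers.

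**Figure D2:**
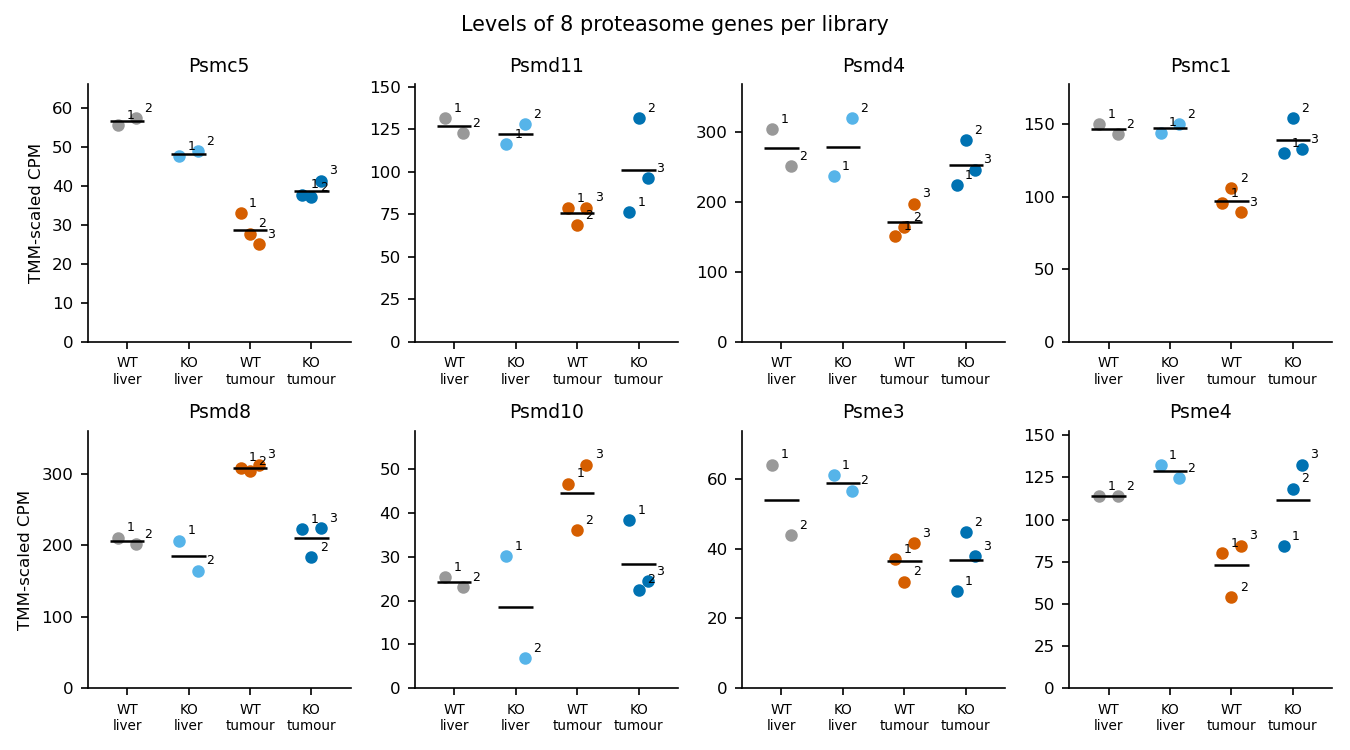
TMM-scaled CPM of 8 genes in each library (points, labelled by replicate; lines, group means). Psmc5, Psmd11, Psmd4, Psmc1 and Psme4 have their lowest group mean in WT tumours, Psmd8 its highest with libraries at 304 to 313 CPM, and Psme3 has low means in both tumour groups.

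Promoter sequence was available for 38 of the 46 genes from RefSeq (GRCm38.p6), and the 250 bases before the start were searched on both strands for 5 motifs, looked at together. CCGGAA, the core of sites for factors of the ETS family such as GABP, was in 17 of the 38 (44.7%), against 13.6% of all promoters and 23.6% of those of tested genes. By class it was in 11 of 17 regulatory particle promoters (64.7%), 2 of 12 core promoters (16.7%), 2 of 5 activator and 2 of 4 inhibitor and chaperone promoters. The median GC content was 57.6% in these promoters, 52.4% in all and 58.8% in those of tested genes. TGACNNNGC, a core of the antioxidant response element, was in 13.2% of the members' promoters and 13.7% of those of tested genes. The shorter TGANNNNGC, which contains it, was in 39.5% and 41.2%, and CCAAT, the NF-Y box, in 34.2% and 40.0%. The longer TGACTCAGC was in none of the 38 and in 0.466% of those of tested genes. A match is a description of letters, not evidence of binding.

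Stretches of 60 bases before the start are shown for 4 genes, to show where CCGGAA lies. They were picked because they read low in WT tumours and hold it. They are written 5′ to 3′ on the gene's strand, with CCGGAA or its reverse complement in capitals. In Psmd4 the capitals are 1 place that reads as CCGGAA on both strands. The stretches lie at chr11:106256063-106256122 on the plus strand for Psmc5, at chr11:80428555-80428614 on the plus strand for Psmd11, at chr3:95042707-95042766 on the minus strand for Psmd4, and at chr11:101316079-101316138 on the plus strand for Psme3.
Psmc5: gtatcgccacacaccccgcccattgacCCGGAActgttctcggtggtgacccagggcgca
Psmd11: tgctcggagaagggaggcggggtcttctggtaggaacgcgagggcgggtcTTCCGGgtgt
Psmd4: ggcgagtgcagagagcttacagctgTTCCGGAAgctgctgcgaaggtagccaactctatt
Psme3: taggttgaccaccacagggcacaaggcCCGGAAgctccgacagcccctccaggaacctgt
The motif begins 95 bases before the RefSeq start in Psmc5, a start that lies inside the GENCODE gene given above, and 10 bases before it in Psmd11. Psme3 holds a pair of matches, of which the nearer, shown here, begins 107 bases before the start. Psmd10, with its highest levels in WT tumours, also holds CCGGAA, and Psmd8 does not. Psmc2, Psmc6 and Psmd12 hold it too, with means of 53.0, 100 and 58.3 CPM in WT livers and 53.1, 101 and 62.3 in WT tumours. Psma2, Psma3, Psma4, Psmb6, Psmc4, Psmd1 and Psmg3 have no match, although all WT tumours lay below both WT livers. Whether the motif goes with the level in tumours was not tested.

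Psmd10 encodes gankyrin, a chaperone of the base of the regulatory particle that is known as an oncoprotein in liver cancer. It had the largest upward log2 fold change among tested members in WT tumours after Psma8, at 0.88 (95% interval -0.12 to 1.87, adjusted p = 0.30 by edgeR). It read 25.4 and 23.1 CPM in WT livers, 30.1 and 6.87 in KO livers, 46.7, 36.0 and 51.0 in WT tumours, and 38.3, 22.5 and 24.4 in the KO tumours. All WT tumours lay above all livers, and the KO tumours overlapped the livers. The KO livers lay far apart, and KO against WT tumours gave -0.65 (-1.52 to 0.22), or -0.51 without KO tumour replicate 2.

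In the core, no gene was called in any of the 6 comparisons by edgeR. Psmb2, a non-catalytic β subunit, read 34.1 and 28.3 CPM in WT livers, 12.4 and 25.9 in KO livers, 15.2, 25.7 and 17.6 in WT tumours, and 17.6, 16.0 and 19.3 in the KO tumours. WT livers were highest, and the other 3 groups overlapped. With library totals the WT tumours overlapped the WT livers. The WT tumour log2 fold change of Psmb2 was -0.68 (95% interval -1.47 to 0.12). Psma4, an α subunit that overlaps AY074887 on the other strand, was called lower by DESeq2 and is described for that reason: it read 143 and 212 CPM in WT livers, 168 and 165 in KO livers, 105, 130 and 107 in WT tumours, and 139, 122 and 140 in the KO tumours. Both tumour groups lay below both liver groups, with log2 fold changes of -0.64 (-1.11 to -0.16, adjusted p = 0.10 by edgeR) in WT and -0.32 (-0.80 to 0.16) in KO mice (-0.25 without KO tumour replicate 2). With library totals the KO tumours still lay below the KO livers, but the WT groups overlapped. Psma6, an α subunit, and Psmb3, a non-catalytic β subunit, had the largest core differences between the tumour groups. Psma6 read 57.5, 79.0 and 60.6 CPM in WT tumours and 98.9, 82.8 and 96.1 in the KO tumours. The 4 livers read 74.8, 80.2, 88.4 and 73.2 CPM. The tumour groups did not overlap, at a log2 fold change of 0.50 (0.06 to 0.93, adjusted p = 0.25 by edgeR), or 0.57 without KO tumour replicate 2. Psmb3 read 52.8, 72.7 and 101 CPM in WT tumours and 92.5, 102 and 113 in the KO tumours, which overlapped, at 0.45 (-0.10 to 0.99). This was 0.45 again without KO tumour replicate 2, but 0.26 without WT tumour replicate 1 and 0.73 without WT tumour replicate 3. The livers read 126 and 90.2 CPM (WT) and 89.8 and 133 CPM (KO).

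Among the activators, Psme4 encodes the large single-chain cap and Psme3 the nuclear ring-shaped one. Psme4 read 114 and 114 CPM in WT livers, 132 and 125 in KO livers, 80.2, 54.0 and 84.6 in WT tumours, and 84.3, 118 and 133 in the KO tumours. The WT tumours lay below all livers, and KO tumour replicate 1 read as low as they did. Its log2 fold change was -0.64 (SE 0.25, adjusted p = 0.14 by edgeR) in WT tumours against WT livers and 0.62 (SE 0.23, adjusted p = 0.18) in KO against WT tumours, or 0.57 without KO tumour replicate 2. Psme3 read 64.1 and 43.9 CPM in WT livers, 61.1 and 56.6 in KO livers, 37.0, 30.6 and 41.6 in WT tumours, and 27.7, 44.8 and 37.9 in the KO tumours. It was low in tumours of both genotypes, at -0.57 (95% interval -1.16 to 0.02) in WT and -0.68 (-1.27 to -0.09, adjusted p = 0.45 by edgeR) in KO mice, and -0.62 (SE 0.20, adjusted p = 0.061 by edgeR) over both, where without KO tumour replicate 2 the adjusted p was 0.038. The WT value was -0.27 without WT liver replicate 1 and -0.82 without WT liver replicate 2, and the KO value -0.84 without KO tumour replicate 2. Psme2b, a near copy of the interferon-inducible Psme2 whose reads may be split between them, read 30.3, 42.8, 43.0 and 46.8 CPM in the 4 livers, 48.6, 39.0 and 53.1 in WT tumours, and 62.6, 40.7 and 57.7 in the KO tumours. The tumour groups overlapped, at 0.19 (-0.32 to 0.71) for KO against WT. This was 0.36 without KO tumour replicate 2, 0.07 without KO tumour replicate 1, 0.10 without WT tumour replicate 2 and 0.32 without WT tumour replicate 3. Psme1 and Psme2, the 2 chains of the interferon-inducible cap, averaged 38.5 and 23.3 CPM over all libraries.

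The chaperones Psmg1 and Psmg2 form a pair that starts the α ring, and Psmg3 and Psmg4 form another. Psmg2 read 30.6 and 39.2 CPM in WT livers, 23.6 and 32.4 in KO livers, 25.7, 22.6 and 19.1 in WT tumours, and 38.5, 27.2 and 28.8 in the KO tumours. WT tumours lay below WT livers and KO tumours, with intervals of -1.27 to 0.005 and -0.09 to 1.07 on the log2 scale. With library totals the WT tumours overlapped both. The difference between the tumour groups was 0.49, or 0.58 without KO tumour replicate 2 and 0.32 without KO tumour replicate 1. Psmg3 read 60.8, 54.9, 67.9 and 57.5 CPM in the 4 livers, 45.2, 46.5 and 43.2 in WT tumours, and 67.6, 61.4 and 53.7 in the KO tumours. The WT tumours were again the lowest 3 libraries, at -0.36 (-0.85 to 0.12) against WT livers, but Psmg3 shares exon sequence with Gm26938 on its own strand. With library totals the WT tumours overlapped the WT livers. Psmg1 read 17.8, 30.6, 33.2 and 26.3 CPM in the livers, 24.2, 32.7 and 14.2 in WT tumours, and 38.8, 28.1 and 32.6 in the KO tumours, and its groups overlapped. Its KO against WT tumour log2 fold change of 0.48 was 0.59 without KO tumour replicate 2, 0.82 without WT tumour replicate 2 and 0.25 without WT tumour replicate 3. Psmf1, which encodes the inhibitor, averaged 16.0 CPM.

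**Figure D3:**
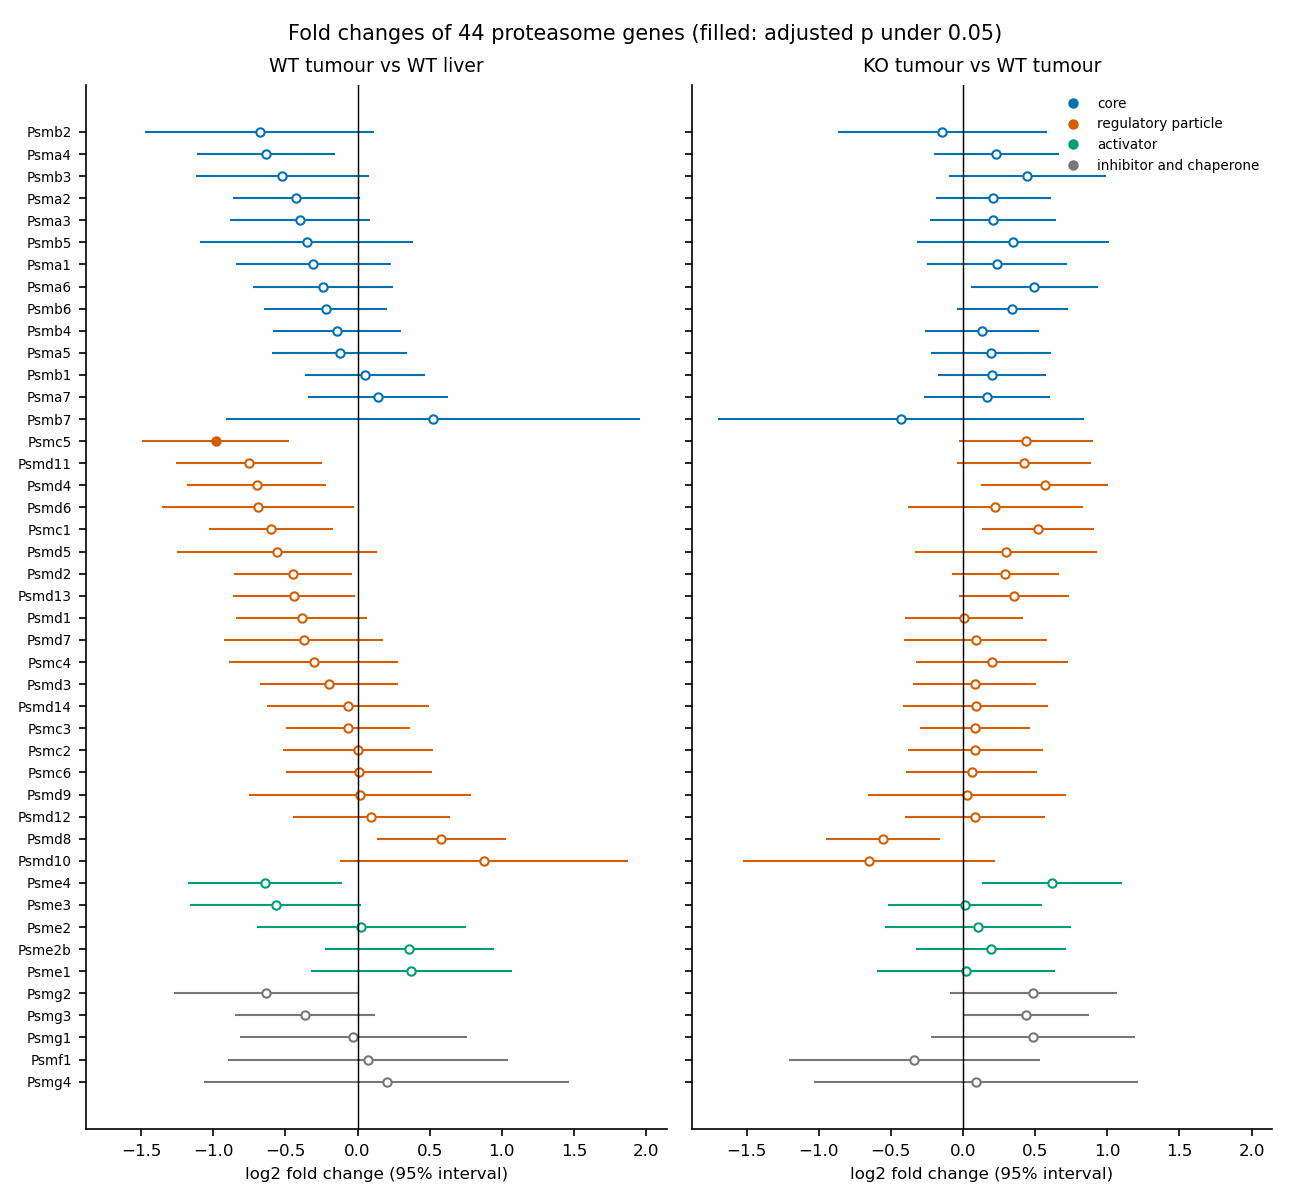
Log2 fold change of 44 genes with 95% intervals in WT tumours against WT livers (left) and KO against WT tumours (right), in one row order, coloured by class. Filled points mark an adjusted p under 0.05, which Psmc5 alone reaches in these panels; Psma8 is left out because WT livers had no counts of it.

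In KO tumours against KO livers, edgeR called none of the 45 genes, where it called 0.0759% of all genes (12 of 15811). At an unadjusted p under 0.05 there was 1 member, Psme3, lower, where 9.61% of all genes passed, and DESeq2 called none, against 2.89% of all genes. The median log2 fold change was -0.04, against 0.06 for all genes, and 38 of the 45 had a 95% interval within -1 to 1 (21.5% of all genes). Without KO tumour replicate 2 the median was 9.0e-04, against 0.03 for all genes, and again none was called, where 1.29% of all genes were. In that fit 1 member was higher and 2 lower at an unadjusted p under 0.05, where the share of all genes was not taken. For KO against WT livers none was called by edgeR, where 0.00632% of all genes was (1 gene), with 1 member, Psma8, at an unadjusted p under 0.05 (7.28% of all genes), and DESeq2 called none (1.35% of all genes). That median was 0.004, against 0 over all genes, and 34 intervals lay within -1 to 1 (19.8% of all genes).

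Between the tumour groups edgeR called none of the 45 genes, where it called 4.52% of all genes. At an unadjusted p under 0.05, 5 were higher in KO tumours (Psma6, Psmc1, Psmd4, Psme4 and Psmg3) and 1, Psmd8, was lower, together 13.3% of members against 14.9% of all genes. These counts were 4 and 1 without KO tumour replicate 2, where the share of all genes was not taken. DESeq2 called Psmc1 higher and Psmd8 lower, where it called 7.97% of all genes. The median log2 fold change was 0.20, against -0.03 for all genes, and 40 of the 45 genes were above 0 where 51.5% of all genes were below. Without KO tumour replicate 2 the median was 0.19, against -0.03 for all genes, and 38 were above 0 (48.1% of all genes). None was called in that fit, where 2.93% of all genes were. With library totals alone the median was 0.12, against -0.11 for all genes, with 13 below 0 (55.9% of all genes). In 10 genes all KO tumours lay above all WT tumours (22.2%, against 12.2% of all genes), and with library totals in 6 (13.3%, against 10.2%). It was 15 (33.3%, against 16.3%) without KO tumour replicate 2, with TMM scaling. Of the 45 intervals 35 lay within -1 to 1 (22.4% of all genes).

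**Figure D4:**
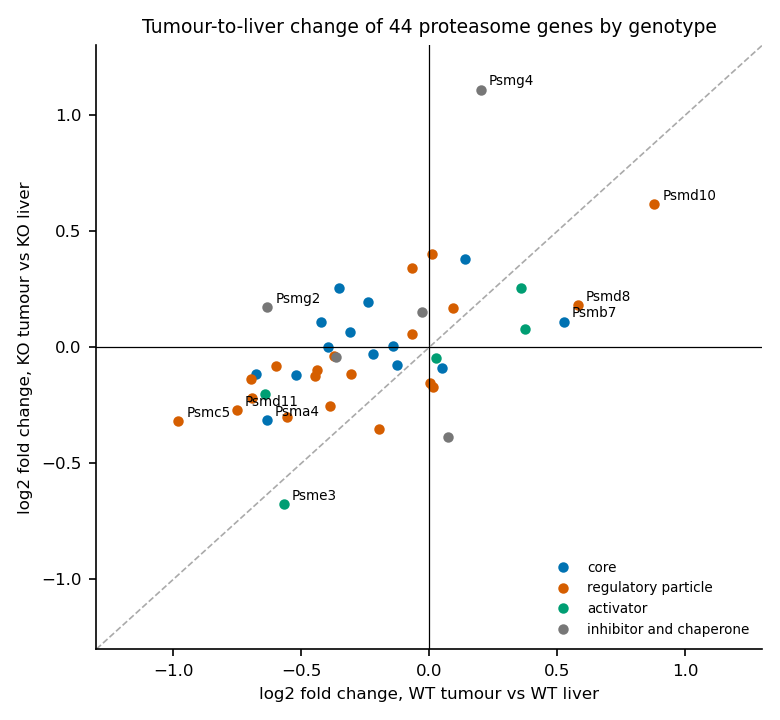
Log2 fold change of 44 genes in WT tumours against WT livers (x axis) and in KO tumours against KO livers (y axis), coloured by class; the dashed line marks equal change. Psmc5 lies farthest left at -0.98 in WT and -0.32 in KO mice, and Psme3 lowest at -0.68 in KO mice.

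The tumour effects in the 2 genotypes come from separate libraries. Over 44 genes (all tested but Psma8) they had a Pearson correlation of 0.58 and a Spearman correlation of 0.58, as a description across genes that share libraries and scaling. The effect was larger in size in WT mice for 31 of the 44, with median sizes of 0.37 and 0.16. Over all genes tested the median sizes were 0.71 and 0.50, so a larger size in WT mice was not particular to these genes. The correlation over all genes was not taken. Without KO tumour replicate 2 the correlations were 0.56 and 0.58, and the effect was larger in WT mice for 29, with median sizes of 0.37 and 0.19. In the test of the difference between these effects, KO minus WT, edgeR called none of the 45 genes, where it called 1.59% of all genes, none had an unadjusted p under 0.05 (12.7% of all genes), and DESeq2 called none (4.65% of all genes). For Psmc5 that difference was 0.66 (95% interval -0.06 to 1.39), and for Psmd4 0.56 (-0.13 to 1.25). They were 0.70 and 0.46 without KO tumour replicate 2. The median of the differences was 0.25, against 0.03 for all genes. These were 0.27 and 0.003 without KO tumour replicate 2, with 33 members above 0 (50.2% of all genes) and none called (1.40% of all genes). With all libraries 14 of the 45 intervals lay within -1 to 1 (6.79% of all genes), so most were too wide to limit the difference to a factor of 2.

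Averaged over both genotypes, Psmc5 alone was lower in tumours by edgeR, where 4.33% of all genes were, and no member was higher, where 4.86% of all genes were. At an unadjusted p under 0.05 there were 2 higher and 7 lower members, 20% of the 45 against 23.6% of all genes. With library totals alone the split turned: Psmd8 was called higher (log2 0.58, adjusted p = 0.028 by edgeR), Psmc5 was not called, and of all genes 1150 were higher and 401 lower, against 769 and 684 with TMM. DESeq2 called 5, Psma4, Psmc5, Psmd11 and Psme3 lower and Psmd8 higher, where it called 15% of all genes. The Psmc5 call held in 8 of 15 alternative settings, with adjusted p up to 0.14, and was lost without WT liver replicate 1 (0.062) or 2 (0.072), KO liver replicate 1 (0.066) or 2 (0.077), or KO tumour replicate 1 (0.056). Other members were called by edgeR without 1 library: Psma4 lower without WT liver replicate 1 (adjusted p = 0.046), Psme3 lower without WT liver replicate 2 (0.045) or KO tumour replicate 2 (0.038), Psmd11 lower without KO tumour replicate 2 (0.014), and Psmd10 higher and Psmd6, a lid subunit, lower without KO liver replicate 1 (0.0049 and 0.042). The median was -0.12, against 0.11 over all genes (-0.14 and 0.08 without KO tumour replicate 2), and 39 of the 45 intervals lay within -1 to 1 (30.4% of all genes).

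The other genes of the ubiquitin pathway were taken from a list of 36, of which 34 were tested. Paaf1 was not analysed here. None was called in 5 of the 6 comparisons, and averaged over both genotypes 2 fell (5.88%, against 4.33% of all genes) and 1 rose (2.94%, against 4.86%), shares near those of all genes. Without KO tumour replicate 2 these 3 calls held, and Adrm1 was also called lower in WT tumours against WT livers (log2 -0.86, adjusted p = 0.031 by edgeR). Adrm1, a ubiquitin receptor of the proteasome, read 114, 79.8, 96.2 and 79.4 CPM in the livers and 53.6, 51.3, 54.8, 49.1, 82.4 and 62.1 in the tumours. It fell by 0.65 on the log2 scale (SE 0.18, adjusted p = 0.036 by edgeR). Only KO tumour replicate 2 reached the range of the livers. Pomp, the maturation factor of the core, read 396, 411, 457 and 442 CPM in the livers and 258, 257, 311, 347, 360 and 322 in the tumours, all tumours below all livers, and fell by 0.47 (SE 0.14, adjusted p = 0.049 by edgeR). Psmb9, an interferon-inducible catalytic subunit of the immunoproteasome, read 11.6, 21.2, 18.6 and 29.2 CPM in the livers and 42.0, 25.8, 48.2, 63.7, 36.2 and 40.0 in the tumours, and rose by 1.10 (SE 0.27, adjusted p = 0.019 by edgeR). WT tumour replicate 2 alone among the tumours read below KO liver replicate 2. These calls held in 5 (Adrm1), 3 (Pomp) and 11 (Psmb9) of 15 alternative settings, with adjusted p up to 0.16, 0.26 and 0.073, and each was lost without WT liver replicate 1, KO liver replicate 1 or KO tumour replicate 1. All 3 calls were also lost with the replicate block (adjusted p = 0.12, 0.12 and 0.072 by edgeR). With library totals Adrm1 and Pomp were not called, at log2 fold changes of -0.45 and -0.27 (adjusted p = 0.14 and 0.26 by edgeR). The 3 immunoproteasome subunits summed to 64.1 to 76.9 CPM in WT livers, 101 to 116 in KO livers, 100.05 to 129 in WT tumours and 116 to 171 in the KO tumours. Nfe2l1, which encodes Nrf1, gave -0.44 in WT tumours (SE 0.29, adjusted p = 0.41 by edgeR) and 0.28 in KO tumours (SE 0.30, adjusted p = 0.82) against their livers, the latter 0.33 without KO tumour replicate 2.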

How the data were processed

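The authors deposited raw counts per gene in 1 table of 10 libraries, made with a strand-specific QuantSeq 3′ kit per the labels' protocols. BWA, featureCounts and mm10 are named, per the submitters' processing notes. Versions and settings: not given in the sources used here. Gene identifiers were matched to GENCODE M21 (GRCm38) for symbols, biotypes and positions (38872 of 39056 matched).

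Groups were taken from the labels. The counts were fitted with edgeR 4.0.16 (R 4.3.3): TMM factors, filterByExpr (15811 genes kept), 1 term per group, all 10 libraries, and quasi-likelihood tests with Benjamini-Hochberg adjustment at 0.05 over all genes tested. The scripts were tested on simulated data. DESeq2 1.42.0, other scalings, no filter, smaller fits, a replicate block and leaving out each library were alternatives. Replicates differed beyond sampling noise (chi-square per degree of freedom 39.8 to 94.8). Same-numbered libraries did not deviate together (r -0.006 to 0.02 over 13 pairs), so numbers were not taken as pairs.

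The members and lists were chosen with earlier results of these data known. Described singly were members called by edgeR, the 2 per class with the largest change in WT tumours against WT livers and in KO against WT tumours, and those that failed the filter. Genes outside this rule are named as chosen after their values were seen.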

Additional observations from a re-analysis of the deposited data

How the results depend on the processing

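Of 16 alternative settings, most left the counts of called members unchanged, but an unchanged count can hold another gene. With library totals alone the 1 call was Psmd8 higher in place of Psmc5 lower, in WT tumours against WT livers and over both genotypes. In WT tumours against WT livers, edgeR's 1 call became 7 with DESeq2 and 0 with the replicate block, and it ranged from 0 to 2 when 1 library was left out. Averaged over both genotypes, 1 call became 3 without the filter, 5 with DESeq2 and 0 with the replicate block, and ranged from 0 to 3 with 1 library left out. Between the tumour groups 0 calls became 2 with DESeq2. The cause of these differences was not tested. With the replicate block Psmc5 had a log2 fold change of -0.97 in WT tumours (adjusted p = 0.051) and -0.63 over both genotypes (adjusted p = 0.10).

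With library totals alone the members' median log2 fold change was 0.019 in WT tumours against livers, 0.090 in KO tumours against livers, 0.12 between tumours, 0.12 for the difference of effects and 0.081 over both genotypes, as the median of all genes moved by up to 0.27. With 1 library left out these medians ran from -0.29 to -0.21, -0.099 to 0.026, 0.14 to 0.22, 0.19 to 0.31 and -0.17 to -0.09, and between livers from -0.079 to 0.0049. Groups of 2 and 3 libraries limit what can be called: intervals of the difference between genotypes were within -1 to 1 for 14 of 45 genes, and for 6.79% of all genes.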
